A study of Mus musculus with 20 samples.

Results

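The nuclear genes of oxidative phosphorylation were examined in jejunal epithelium of controls and of mice labelled as a knockout of Kdm6a and Kdm6b. Members were the symbols that begin with Nduf, Uqcr or Atp5, those of the Cox4 to Cox8 families, and Sdha, Sdhb, Sdhc and Sdhd, where they stood in the tables of both times. This gave 87 members of 17294 gene names in the acute and 16195 in the prolonged table. A further 4 symbols fitted the pattern in 1 table only: Ndufa4l2 in the acute one and Cox4i2, Cox7b2 and Cox8c in the prolonged one. All 87 passed the filter on low values at both times. They comprise 35 subunits of complex I, 4 of complex II, 8 of complex III, 14 of complex IV and 15 of complex V. The remaining 11 are not subunits: Ndufaf1 to Ndufaf8 and Atp5sl help to assemble complex I, Cox7a2l takes part in the assembly of supercomplexes, and Atp5s is a factor named after ATP synthase. Ndufa4 carries a complex I name but its protein is counted here with complex IV.

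The respiratory chain of the inner mitochondrial membrane passes electrons from NADH (complex I) and succinate (complex II) through complex III to cytochrome c and on to oxygen at complex IV. Complexes I, III and IV pump protons, and ATP synthase (complex V) uses the resulting gradient to make ATP. Most subunits are encoded in the nucleus and a few core ones in mitochondrial DNA, and several complex IV subunits have isoforms that are typical of heart and skeletal muscle or of testis. In the intestine, stem cells at the crypt base and absorptive cells are both known to depend on mitochondrial respiration.

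The animals were female, and RNA came from intestinal epithelial cells of the jejunum that the series design places in the crypt. Controls are labelled Control/WT and the others as a knockout of Kdm6a and Kdm6b, 2 enzymes that remove methyl groups from lysine 27 of histone H3; these are called DKO below. At 7 days after ablation there were 5 control and 7 DKO libraries, called acute, and at 5 months 3 control and 5 DKO libraries, called prolonged. The driver of the ablation, the genetic background and the age of the animals are not given in the sources used here. The labels call the libraries biological replicates and give an animal number for the acute ones only, so p-values measure the spread between these libraries.

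Values per library are CPM, read counts scaled to the same total in every library. Reads in genes numbered 15435100 to 26549500 in acute controls, 19134300 to 26586000 in acute DKO, 9914740 to 23181600 in prolonged controls and 12560800 to 20612200 in prolonged DKO libraries. Kdm6a and Kdm6b were lower in all DKO libraries than in all controls of the same time, though reads of both remained. At 7 days Kdm6a was 57.7 to 72.6 CPM in controls and 38.5 to 45.7 CPM in DKO libraries. Kdm6b was 91.2 to 109.3 and 59.8 to 81.1 CPM. At 5 months Kdm6a was 70.8 to 82.6 CPM in controls and 44.4 to 55.3 CPM in DKO libraries. Kdm6b was then 99.5 to 106.7 and 71.4 to 82.9 CPM. Epithelial markers (8 genes) summed to between 11297 and 13443 CPM over all acute and to between 11671 and 13125 CPM over all prolonged libraries. Proliferation genes were lower in DKO libraries (12 of 12 called at 7 days, 11 of 12 at 5 months), as were Paneth cell genes (6 of 8 and 5 of 8). Of all genes tested, 12.1% were called lower at 7 days and 8.94% at 5 months, and 2.90% and 5.74% higher. Crypt base stem markers had 3 of 8 called lower at 7 days and 2 of 8 at 5 months, and all 8 differed downward at both; they summed to 1968 to 2556 CPM in acute controls against 776 to 1811 CPM in acute DKO, and to 2167 to 2574 against 1594 to 1816 CPM at 5 months, without overlap. Stroma and endothelium markers had no call among 8 tested at 7 days by limma, all 8 with positive differences, and summed to 47.0 to 208 CPM in acute controls and 36.5 to 702 CPM in acute DKO. At 5 months all 5 tested were above 0 and 1 was called higher, with sums of up to 19.5 CPM in controls and up to 31.5 CPM in DKO libraries, and overlapping ranges. Enterocyte markers had 3 of 12 called higher and 1 lower at 7 days, with 10 above 0. At 5 months 1 was called higher and 1 lower, with 9 above 0. Their sums ranged from 29129 to 43428 CPM in acute controls and from 37756 to 50528 CPM in acute DKO libraries. The prolonged sums ranged from 37001 to 49160 CPM in controls and from 48477 to 51675 CPM in DKO libraries, so the groups overlapped at both times. Acute DKO 1, 3 and 4 stood apart over all genes, with median deviations from the control mean of -0.16, -0.14 and -0.20 on the log2(CPM + 1) scale, against -0.05 to 0.00 in the other 4. Acute controls ran from -0.08 (control 5) to 0.06. The fits without acute DKO 3 and 4 given below keep DKO 1. Levels of cell type markers thus differed between groups, and in bulk RNA fewer cells of a type cannot be told apart from less RNA per cell. The part of these differences in the members' values was not tested.

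The members' promoters were described from RefSeq sequences of build GRCm38.p6 in the 250 bases before each listed start. Of the 87 members, 74 matched by symbol. Their first listed promoters held a median of 15 CpG dinucleotides, from 4 to 35, compared with a median of 6 over 27025 genes. Motifs were searched on both strands at any listed start: that of NRF1, a known activator of respiratory chain genes, as GCGCANGCG with N for any base, an ETS motif as CCGGAAGT and a YY1 motif as AAGATGGCG. The NRF1 letters stood in 14 of 74 members (18.9%) and in 5.86% of all genes, the ETS letters in 3 members (4.05%) and 3.23% of all genes, and the YY1 letters in 2 members (2.70%) and 0.710% of all genes. The 27025 genes were not limited to genes measured in this epithelium. The letters of each motif contain CpG, and the members' promoters hold more CpG than those of all genes. The part of CpG content in these shares was not tested. No motif contains another, and a match is a description of the sequence, not evidence of binding. The windows below follow the gene's strand and show the NRF1 letters or their reverse complement in capitals, for the highest expressed matching member of each group that has one: Ndufa8 (chr2:36049348-36049377, minus strand), Sdha (chr13:74350319-74350348, minus), Cox6a1 (chr5:115349101-115349130, minus), Atp5c1 (chr2:10080433-10080462, minus) and Ndufaf4 (chr4:24897960-24897989, plus).
Ndufa8: tagagcagtgCGCTTGCGCgtcgctggaga
Sdha: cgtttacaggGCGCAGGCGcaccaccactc
Cox6a1: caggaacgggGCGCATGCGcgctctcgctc
Atp5c1: cgcctgagctcccGCGCACGCGcactgagt
Ndufaf4: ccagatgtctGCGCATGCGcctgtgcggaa
None of these 5 members was called at either time with deposited CPM, and Cox6a1 was called higher at 7 days in the authors' deposited table (0.22, adjusted p = 0.0437 from DESeq2).

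The first comparison asked which members differed 7 days after ablation. The members as a group stayed close to the control level: 2 of 87 were called, where a call is a Benjamini-Hochberg adjusted p under 0.05 by limma over all 13601 genes tested. Ndufa4 was higher and Cox7a1 lower, against 15.0% of all genes tested that were called (2.90% higher and 12.1% lower). Log2 fold changes of the members (knockout minus control, in units of log2(CPM + 1)) ran from -0.33 to 0.31. Their median size, without regard to sign, was 0.05 compared with 0.14 over all genes tested. For 78 of the 87 members (89.7%) the 95% interval of the difference lay inside a 1.25-fold change in either direction, compared with 34.9% of all genes tested. The median standard error was 0.05 for members and 0.11 for all genes tested, so the members' intervals were also narrower. At an unadjusted p under 0.05 by limma, 11 members passed, 4 of them higher and 7 lower, compared with 28.9% of all genes (6.48% higher and 22.4% lower).

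**Figure D1:**
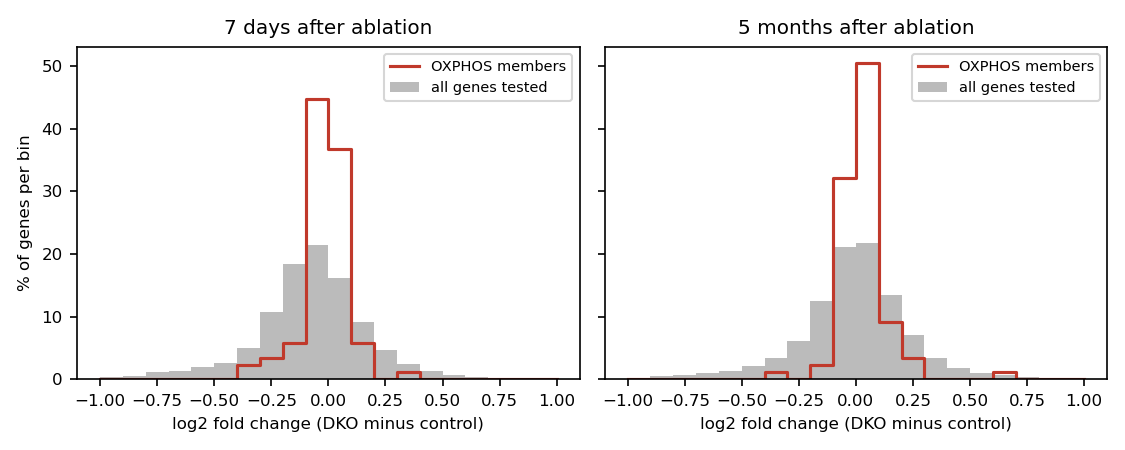
Distribution of log2 fold changes (knockout minus control in units of log2(CPM + 1), x axis) as a percentage of genes per bin of 0.1 (y axis), for the 87 members (red outline) and all genes tested (grey bars), 7 days and 5 months after ablation; genes beyond -1 or 1 are not drawn. At both times the members lie in a narrower range around 0 than all genes: their median size of change was 0.05 and 0.04, that of all genes 0.14 and 0.12.

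The direction of the acute group median depended on how libraries were scaled. With CPM as deposited it was -0.01 for members and -0.07 for all genes tested, and 38 members lay above and 49 below 0. Under TMM scaling it was 0.08 against 0.01 for all genes, under relative log expression (RLE) scaling 0.09 against 0.02, in edgeR 0.08 against 0.02, and 0.09 against 0.04 by the log2 fold changes of the authors' deposited table. The difference between both medians was 0.06 with deposited CPM and between 0.06 and 0.07 in those other fits. Above 0 lay 35.4% of all genes tested. The acute calls under TMM, under RLE and in edgeR were 2 higher (Ndufa4 and Ndufa6) and 0 lower, where 13.4%, 13.2% and 12.9% of all genes were called, and the authors' deposited table has 4 higher (Ndufa4, Ndufa6, Cox6a1 and Atp5sl) and 0 lower, with 15.0% of all its genes called. No direction is given for the family at 7 days, since its median changes sign with the scaling.

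After 5 months, 4 of 87 members were called: Ndufa4, Atp5sl and Cox6b2 were higher and Cox7a1 was lower. Of all 13316 genes tested, 14.7% were called (5.74% higher and 8.94% lower). Members ranged from -0.30 to 0.62, with a median of 0.02 and a median size of 0.04, compared with 0.00 and 0.12 over all genes. The 95% interval lay inside a 1.25-fold change for 76 members (87.4%), compared with 44.9% of all genes tested. At an unadjusted p under 0.05 by limma, 6 members passed, 5 of them higher and 1 lower, compared with 28.2% of all genes (12.3% higher and 15.9% lower). Above 0 lay 56 of the 87 members and 50.4% of all genes tested. The calls were 3 higher and 1 lower under TMM, in edgeR and in the authors' deposited table, and 3 higher and 0 lower under RLE, where 15.3%, 15.0%, 15.6% and 15.2% of all genes were called in that order. Control and DKO libraries did not overlap for 8 members, of which Atp5sl, Cox4i1, Cox6b2, Ndufa11, Ndufa4, Sdhb and Uqcrc1 were higher and Ndufaf2 lower, while 20.5% of all genes tested had groups without overlap (8.82% higher and 11.7% lower). At 7 days Ndufs6 was the single member with groups that did not overlap, and it was lower; 7.79% of all genes had such groups (1.24% higher and 6.55% lower).

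**Figure D2:**
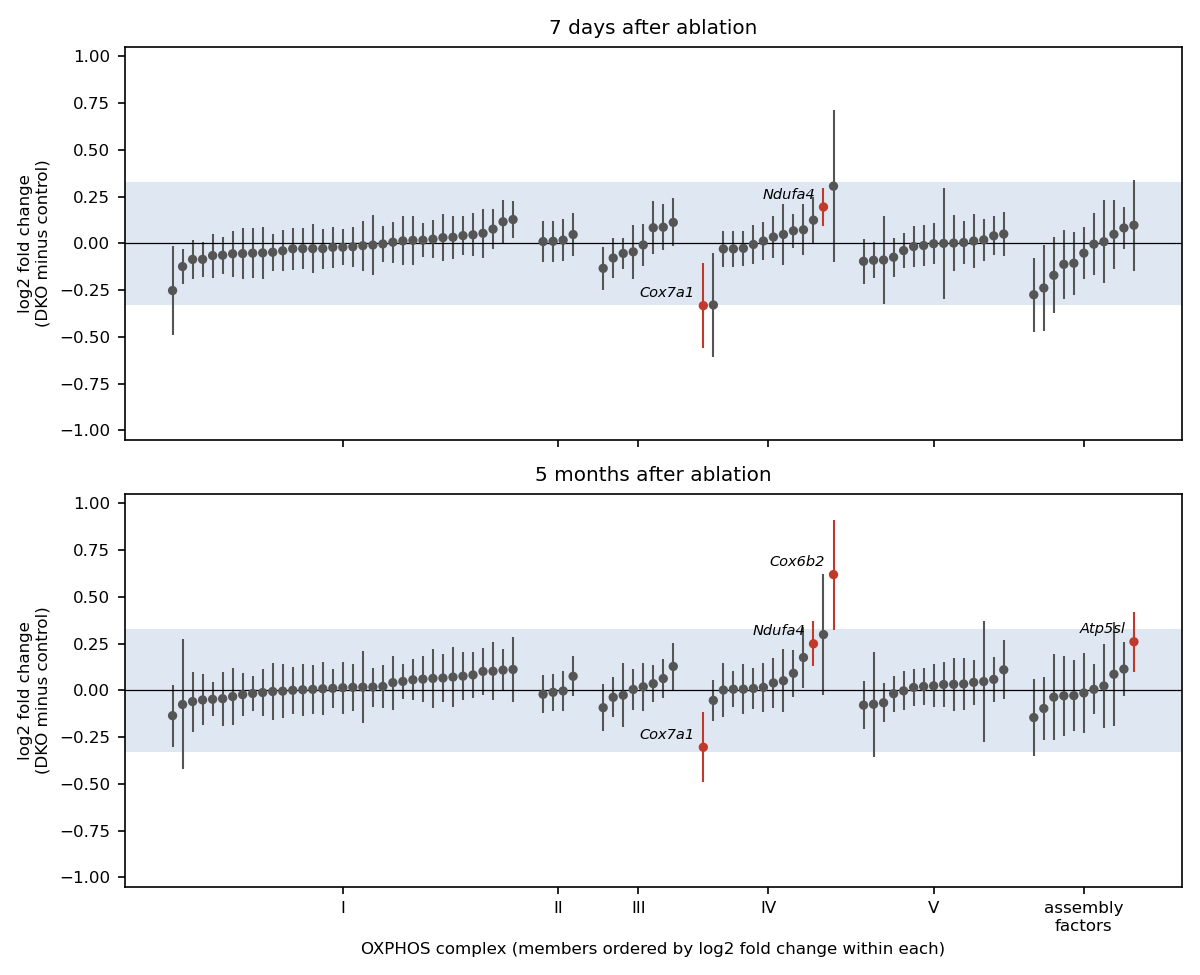
Log2 fold change (DKO minus control, y axis) of the 87 members with its 95% interval from limma, by complex (x axis; members are ordered by value within a complex, so the order differs between panels). Red marks members with an adjusted p under 0.05 and the shaded band a 1.25-fold change in either direction; Ndufa4 lies above and Cox7a1 below 0 in both panels.

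Complex I, the largest enzyme of the chain, had 35 members and none was called at either time with deposited CPM; at an unadjusted p under 0.05 by limma, 4 passed at 7 days (Ndufa6 and Ndufc2 higher, Ndufb4 and Ndufs6 lower) and 0 at 5 months. At 7 days its members ran from -0.25 (Ndufb4) to 0.13 (Ndufa6) with a median of -0.02, and at 5 months from -0.14 (Ndufa12) to 0.11 (Ndufb2) with a median of 0.01. Ndufb4 was at a very low level, 2.29 to 4.47 CPM over the acute libraries. The authors' deposited table has -0.26 for it at 7 days (adjusted p = 0.309 from DESeq2). The 95% interval stayed inside a 1.25-fold change for 34 of 35 at each time. Ndufs1, which carries iron-sulfur clusters of the electron path, had a mean of 226 ± 10.5 CPM over 5 acute controls (SD) and of 222 ± 12.1 CPM over 7 acute DKO libraries, a log2 fold change of -0.03 ± 0.05 (SE). Ndufv1, which binds NADH, differed by 0.02 ± 0.04 and 0.08 ± 0.06 at 7 days and 5 months, and Ndufs7, another iron-sulfur subunit, by -0.04 ± 0.05 and 0.04 ± 0.07, none of them called by limma. Ndufa6, an accessory subunit chosen here after its values were seen, was 144, 167, 158, 161 and 163 CPM in acute controls 1 to 5 and 166, 174 and 182 CPM at the lowest, median and highest of the acute DKO libraries. Control 2 lay within the DKO range and the other controls below it. Its difference of 0.13 ± 0.05 was not called with deposited CPM (limma, adjusted p = 0.0837) but was under TMM scaling (0.22, limma, adjusted p = 0.0149). At 5 months Ndufa6 differed by 0.10 ± 0.07 (limma, adjusted p = 0.386).

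Ndufs6, an accessory subunit of complex I, was the single acute member without overlap and was likewise singled out after its values were seen. It stood at 81.3, 89.1, 83.9, 84.5 and 83.8 CPM in controls 1 to 5, and at 72.9, 78.2 and 81.0 CPM at the lowest, median and highest of the DKO libraries. The highest DKO library, DKO 3, lay just under the lowest control. The difference of -0.12 ± 0.04 was not called (limma, adjusted p = 0.0703) and rests on CPM as deposited: the authors' deposited table has -0.03 (adjusted p = 0.817 from DESeq2). At 5 months it was -0.01 ± 0.06 (limma, adjusted p = 0.919). The annotation holds a near-identical pseudogene copy of Ndufs6, so its count may be divided between copies. None of the 8 Ndufaf assembly factors was called at either time. Ndufaf7, which methylates a core subunit during assembly, was lowest of them at 7 days with 26.9 ± 2.32 CPM over controls against 22.2 ± 2.99 CPM after knockout (-0.27 ± 0.09, limma, adjusted p = 0.0613), and differed by -0.03 ± 0.09 at 5 months.

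Complexes II and III had no called member at either time by limma, edgeR or the authors' DESeq2, and Uqcr10 (lower, 7 days) and Uqcrc1 (higher, 5 months) were the ones with an unadjusted p under 0.05 in limma; the 95% interval of all 12 lay inside a 1.25-fold change at both. Sdha, the flavoprotein that oxidises succinate, was 956, 949.8, 899, 968 and 927 CPM in acute controls 1 to 5 and 908, 956 and 1001 CPM at the lowest, median and highest of the acute DKO libraries. The ranges overlapped almost entirely. Sdha differed by 0.02 ± 0.05 at 7 days and -0.00 ± 0.05 at 5 months, and Sdhb, the iron-sulfur subunit, by 0.05 ± 0.05 and 0.08 ± 0.05. Among complex III members, Uqcr10 was the lowest (-0.13 at 7 days and -0.09 at 5 months) and Uqcrc1, a core protein, the highest (0.11 ± 0.06 and 0.13 ± 0.06), and Uqcrfs1, the Rieske iron-sulfur protein, differed by 0.09 ± 0.06 and 0.06 ± 0.05. At 5 months Uqcrc1 was 694, 698 and 716 CPM in controls 1 to 3 and 736, 771, 835, 768 and 733 CPM in DKO libraries 1 to 5. No DKO library fell within the control range, yet the difference was not called (limma, adjusted p = 0.164).

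Complex V had no called member among 15 at either time by limma, edgeR or the authors' DESeq2, and 0 with an unadjusted p under 0.05 in limma. Its members ran from -0.10 (Atp5k) to 0.05 (Atp5g1) at 7 days and from -0.08 to 0.11 for the same genes at 5 months. Atp5b, the catalytic beta subunit, was 2995, 3092, 2843, 2863 and 2891 CPM in acute controls 1 to 5. The lowest, median and highest acute DKO libraries were at 2805, 2930.1 and 3136 CPM. The control range lay wholly inside the DKO range, and the difference was 0.00 ± 0.07 at 7 days and 0.03 ± 0.07 at 5 months. Atp5a1, the alpha subunit, differed by 0.01 ± 0.07 and 0.03 ± 0.06. The c-ring of the proton channel is encoded by Atp5g1, Atp5g2 and Atp5g3 with the same mature protein, and in acute controls their levels per kilobase of transcript were 122 ± 3.66, 2.69 ± 1.09 and 1180.2 ± 41.6 CPM. Atp5g2 and Atp5g1 have 2 and 1 annotated near-identical copies and Atp5g3 none.

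Of the 14 members of complex IV, 1 was higher and 1 lower at 7 days, and 2 were higher and 1 lower at 5 months. Of all genes tested, 15.0% and 14.7% were called. With only 14 members, the counts at both times are near these shares, which was not tested. Its intervals lay inside a 1.25-fold change less often (11 and 9 of 14) than those of complex I (34 of 35 at each time), a difference that was not tested. Its extremes were Cox7a1 and Cox6b2, at -0.33 and 0.31 after 7 days and at -0.30 and 0.62 after 5 months. Cox4i1, a core-associated subunit with a rare isoform Cox4i2, differed by 0.03 ± 0.05 and 0.09 ± 0.06. Cox8a, a small subunit, differed by -0.03 ± 0.04 and 0.01 ± 0.06, and neither was called by limma.

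Ndufa4, a subunit that joins complex IV late in its assembly, was higher in DKO libraries at both times. In acute controls 1 to 5 it stood at 245, 230.0, 229, 224 and 243 CPM. The acute DKO libraries had 244 CPM at the lowest, 268 at the median and 283 at the highest. DKO 4 lay just under control 1, and the other 6 DKO libraries lay above all 5 controls. The means were 234 ± 9.30 and 268 ± 12.3 CPM (SD, n = 5 and 7), a log2 fold change of 0.19 ± 0.05 (limma, adjusted p = 0.0138), and without DKO 3 and 4 it was 0.21 (adjusted p = 0.0119).

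At 5 months Ndufa4 stood at 223, 203 and 206 CPM in controls 1 to 3 and at 247, 234, 267, 258 and 246 CPM in DKO libraries 1 to 5. Every DKO library was above every control. The means were 211 ± 10.4 and 251 ± 12.7 CPM (n = 3 and 5), a difference of 0.25 ± 0.06 (limma, adjusted p = 0.0112). Without prolonged control 3, which has the fewest reads, the difference was 0.23 and no longer called (limma, adjusted p = 0.0613). Ndufa4 stayed called in each of the 12 acute fits that left out 1 library and in 7 of 8 prolonged ones. All 4 other scalings and tests at each time called it too, with log2 fold changes of 0.28 to 0.29 and 0.25 to 0.26.

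A ratio within a library needs no scaling between libraries, and is given as a description with no test, since Ndufa4 and Cox7a1 were picked after their calls had been seen. Per 100 CPM summed over the 10 other complex IV members of general expression, Ndufa4 was 6.83 ± 0.323 over the acute controls against 7.63 ± 0.503 over the acute DKO libraries. It was higher than the control mean in 6 of the 7 DKO libraries, DKO 4 being below it at 6.57. At 5 months the ratio was 7.19 ± 0.593 in controls and 8.20 ± 0.182 in DKO libraries, with all 5 DKO libraries between 8.03 and 8.41 and above the highest control at 7.87.

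Cox7a1 encodes the heart and skeletal muscle isoform of a small complex IV subunit whose other isoform is Cox7a2, and was lower in DKO libraries at both times. In acute controls 1 to 5 it was 44.0, 68.0, 54.2, 55.8 and 58.5 CPM. The acute DKO libraries had 36.0 CPM at the lowest, 45.0 at the median and 53.1 at the highest. Control 1 lay inside the DKO range, and the other 4 controls lay above all 7 DKO libraries. The means were 56.1 ± 8.63 and 44.2 ± 5.53 CPM (n = 5 and 7), a difference of -0.33 ± 0.11 that passed the threshold narrowly (limma, adjusted p = 0.0498). The acute call was lost in 10 of 12 fits that left out 1 library (it stayed without control 1 and without DKO 5) and in all 4 other scalings and tests, with differences of -0.26 to -0.24 and adjusted p between 0.119 and 0.159 in the latter; without DKO 3 and 4 it was -0.30 (limma, adjusted p = 0.0884). With nearby animal numbers as blocks it was -0.21 (limma, adjusted p = 0.308). In that fit control 5 and DKO 3 and 4 stood in blocks of a single genotype, so they added nothing to the difference. Control 1, the lowest control, was the only control in its block.

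At 5 months Cox7a1 stood at 40.0, 48.4 and 44.9 CPM in controls 1 to 3 and at 34.9, 32.4, 41.3, 34.7 and 35.7 CPM in DKO libraries 1 to 5. DKO 3 lay above control 1, and the other 4 DKO libraries lay below all controls. The means were 44.4 ± 4.22 and 35.8 ± 3.30 CPM (n = 3 and 5), a difference of -0.30 ± 0.09 (limma, adjusted p = 0.0334). The prolonged call was lost in 6 of 8 fits that left out 1 library, with adjusted p up to 0.117, and the difference stayed between -0.38 and -0.24. Cox7a2, the isoform of most tissues, was 203 ± 7.22 and 199 ± 8.36 CPM at 7 days (-0.03 ± 0.04) and 180.5 ± 4.03 and 181 ± 4.18 CPM at 5 months (0.01 ± 0.04), not called by limma at either time. Cox7a2l, a relative of both that acts in supercomplex assembly, differed by -0.05 ± 0.06 and 0.01 ± 0.06.

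Cox7a1 was well above 0 in this epithelium: per kilobase of transcript it stood at 143 ± 22.0 CPM in acute controls, compared with 308 ± 11.0 CPM for Cox7a2. Per 100 CPM of Cox7a2 in the same library there were 27.6 ± 3.75 CPM of Cox7a1 in acute controls but 22.2 ± 2.85 CPM after acute knockout, again as a description. At 5 months the values were 24.6 ± 1.87 and 19.7 ± 1.59, and all 5 DKO libraries, at 18.6 to 22.5, were below all 3 controls, at 22.7 to 26.5. Muscle markers were low in all libraries, and their part in the Cox7a1 difference was not tested. The smooth muscle markers (8 in the acute and 7 in the prolonged table) summed to 4.57 to 6.67 CPM in acute controls and 5.00 to 8.49 CPM in acute DKO libraries, and to 3.43 to 4.18 and 4.09 to 8.25 CPM at 5 months. The striated muscle markers (4 and 3 in the tables) summed to 4.79 to 7.43 and 2.75 to 6.08 CPM at 7 days and to 5.31 to 13.2 and 4.27 to 8.04 CPM at 5 months, mostly from Acta1. Ckm, the muscle creatine kinase, was at most 0.275 CPM and Myh11, the smooth muscle myosin, at most 0.963 CPM in any library.

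The promoters of the Cox7a1 and Cox7a2 isoforms, one of which was lower in DKO libraries and the other not called, are shown for their contrast in CpG content, with each CpG in capitals. Cox7a1 (chr7:30183921-30184170, plus strand) has 4, the lowest number among the members and shared with Ndufc2, and Cox7a2 (chr9:79759854-79760103, minus strand) has 14.
Cox7a1: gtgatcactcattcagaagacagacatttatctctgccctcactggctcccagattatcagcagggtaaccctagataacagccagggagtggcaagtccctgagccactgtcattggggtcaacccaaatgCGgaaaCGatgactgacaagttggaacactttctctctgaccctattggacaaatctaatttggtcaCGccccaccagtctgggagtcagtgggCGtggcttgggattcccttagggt
Cox7a2: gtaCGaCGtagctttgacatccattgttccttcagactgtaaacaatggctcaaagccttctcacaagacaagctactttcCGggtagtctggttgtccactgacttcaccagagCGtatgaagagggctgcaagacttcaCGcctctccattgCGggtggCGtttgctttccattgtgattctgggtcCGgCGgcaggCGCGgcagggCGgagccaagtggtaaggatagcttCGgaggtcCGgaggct
Their GC contents were 51.2% and 54.8%, and neither holds the NRF1, ETS or YY1 letters above. The 250 bases before Ndufa4 likewise hold none of the 3 motifs and have 10 CpG. Histone marks and binding at these promoters were not analysed here, and the part of CpG content in the members' differences was not tested. Ndufc2, with as few CpG as Cox7a1, differed by 0.12 at 7 days and 0.10 at 5 months and was not called.

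**Figure D3:**
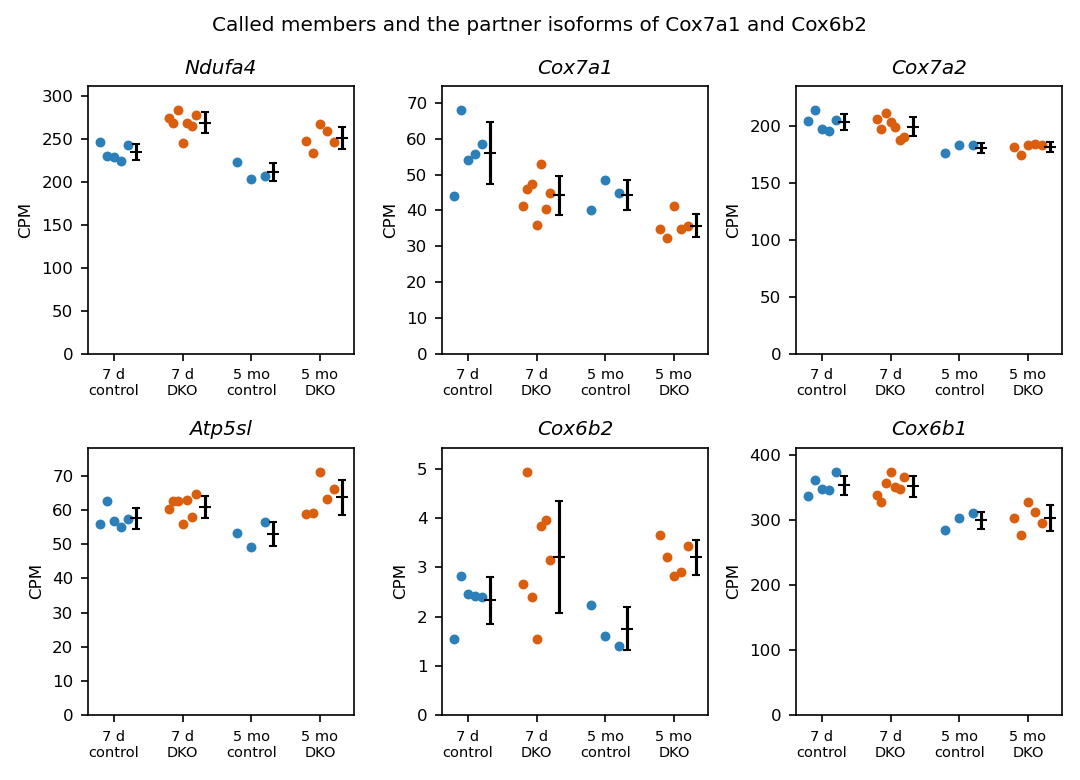
CPM per library (y axis, from 0) in control (blue) and DKO (orange) libraries at 7 days and 5 months for the 4 called members and for Cox7a2 and Cox6b1, the other isoforms of Cox7a1 and Cox6b2; black marks are the mean and SD. Ndufa4 is higher and Cox7a1 lower in DKO libraries at both times while Cox7a2 and Cox6b1 overlap between groups; levels at 7 days and 5 months come from separately normalised tables.

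Cox6b2, the isoform of subunit 6b known from testis, was higher in DKO libraries at 5 months, at a very low level. It stood at 2.24, 1.61 and 1.41 CPM in controls 1 to 3 and at 3.66, 3.21, 2.82, 2.91 and 3.43 CPM in DKO libraries 1 to 5. Every DKO library was above every control. The means were 1.75 ± 0.435 and 3.21 ± 0.351 CPM, a log2 fold change of 0.62 ± 0.13 (limma, adjusted p = 0.0101), and without control 3, the shallowest library, it was 0.53 (limma, adjusted p = 0.0590). At 7 days Cox6b2 averaged 2.33 ± 0.470 CPM over controls and 3.21 ± 1.13 CPM after knockout (0.31 ± 0.19, limma, adjusted p = 0.316), where the DKO libraries ran from 1.54 (DKO 4) to 4.94 CPM (DKO 2) and covered the whole control range. On scales with no added CPM the acute difference was 0.53 in edgeR and 0.54 in the authors' deposited table, not called in either (adjusted p = 0.169 and 0.119). The prolonged difference on these scales was 0.84 in both and called in both (adjusted p = 0.0163 in edgeR and 0.0113 from DESeq2). Without acute DKO 3 and 4 the difference was 0.49 and not called (limma, adjusted p = 0.0516). Cox6b1, the isoform of most tissues, was 299.6 ± 13.4 and 303 ± 19.3 CPM at 5 months (0.02 ± 0.06, limma, adjusted p = 0.896). Per kilobase of transcript, Cox6b2 was at 5.01 ± 1.01 CPM and Cox6b1 at 572 ± 23.9 CPM in acute controls.

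Atp5sl, named after a subunit of ATP synthase but now known as the complex I assembly factor Dmac2, was higher at 5 months. It stood at 53.3, 49.2 and 56.5 CPM in controls 1 to 3 and at 58.8, 59.1, 71.2, 63.2 and 66.3 CPM in DKO libraries 1 to 5. Groups did not overlap. The means were 53.0 ± 3.63 and 63.7 ± 5.23 CPM, a difference of 0.26 ± 0.07 (limma, adjusted p = 0.0353). The call was lost in 6 of 8 fits that left out 1 library and stayed without DKO 1 or DKO 2, with limma adjusted p up to 0.118. At 7 days Atp5sl was 57.6 ± 2.95 and 61.0 ± 3.17 CPM (0.08 ± 0.05, limma, adjusted p = 0.333), and 6 of 7 DKO libraries lay above the control mean.

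The second muscle isoform, Cox6a2, was at the edge of detection and its differences had opposite signs at 7 days and 5 months. It averaged 0.817 ± 0.308 CPM over the acute controls and 0.441 ± 0.180 CPM over the acute DKO libraries (-0.33 ± 0.13, limma, adjusted p = 0.106), and 0.431 ± 0.150 and 0.767 ± 0.241 CPM at 5 months (0.30 ± 0.15, limma, adjusted p = 0.215). The log2(CPM + 1) scale understates changes at such levels, and the authors' deposited table has -0.82 and 0.92 (adjusted p = 0.140 and 0.265 from DESeq2). Its difference between times was 0.63 ± 0.20, the largest in size of all 87 members, and did not pass (adjusted p = 0.702, from the limma estimates of both times). None of the 87 members passed this test of a changed effect between times; 5 of 13088 genes (0.0382%) did. At an unadjusted p under 0.05 it was passed by 1 of 87 members, Cox6a2, and by 6.78% of these genes. Cox6a1, the isoform of most tissues, was 606 ± 36.6 and 660.0 ± 34.1 CPM at 7 days (0.12 ± 0.06, limma, adjusted p = 0.167) and 512 ± 47.3 and 578 ± 45.2 CPM at 5 months (0.18 ± 0.08, limma, adjusted p = 0.152). Ndufa4 and Cox7a1 were the members called at both times, and 8.01% of the 13088 genes tested at both times were.

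**Figure D4:**
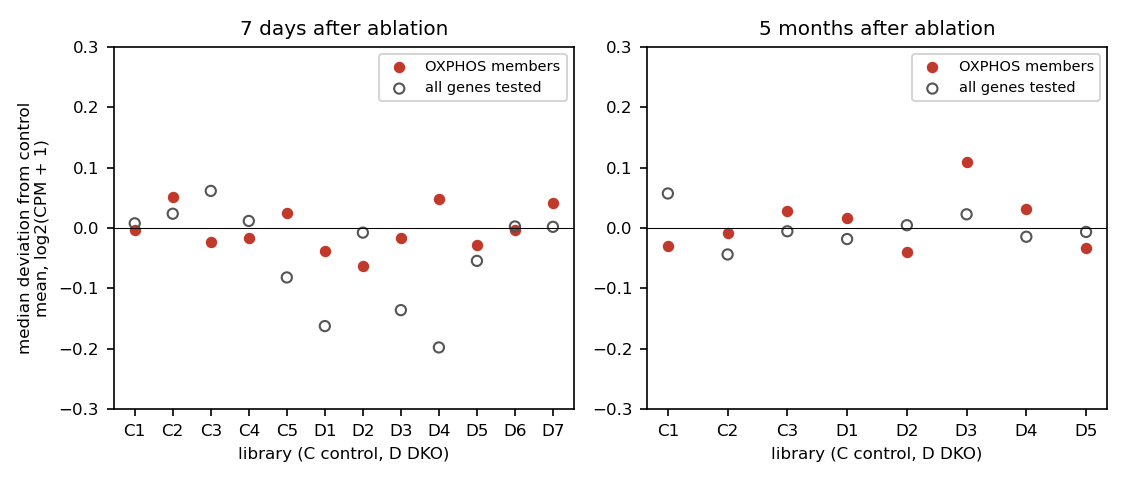
Median deviation of each library from the control mean of its time (y axis, log2(CPM + 1) scale) over the 87 members (red) and over all genes tested (open circles), for control (C) and DKO (D) libraries on the x axis. At 7 days the members of the DKO libraries stay between -0.06 and 0.05 while all genes reach -0.20 in DKO 4; at 5 months DKO 3 has the highest member median, 0.11.

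In each library, the members drew a steady share of the reads. They held 2.21% to 2.36% of reads in genes over the 5 acute controls and 2.18% to 2.41% over the 7 acute DKO libraries, and 1.96% to 2.04% and 1.98% to 2.15% over the prolonged ones, so the groups overlapped at both times. The median deviation of the members from the control mean lay between -0.02 and 0.05 in acute controls and between -0.06 and 0.05 in acute DKO libraries, and acute DKO 1, 3 and 4, the lowest over all genes, stood at -0.04, -0.02 and 0.05 over the members. At 5 months the members' median deviation ran from -0.03 to 0.03 in controls and from -0.04 to 0.11 in DKO libraries, with DKO 3 the highest.

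Levels of some members depend on annotated copies. In the mouse gene annotation GENCODE M21, 11 of the 87 had 1 or more copies elsewhere with at least 95% identity over at least 50% of the transcript, most of them pseudogenes, and Atp5l had 9, Atp5h 4 and Uqcrb 3. How reads shared with copies were counted was not given. None of the 4 called members had such a copy, and no other annotated gene overlaps their exons. Per kilobase, Atp5b was the highest member in acute controls at 1533 ± 54.6 CPM and Cox6a2 the lowest at 1.20 ± 0.453 CPM.

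Genes that work with the members gave few calls. Of all genes tested with deposited CPM, 15.0% were called at 7 days (12.1% lower) and 14.7% at 5 months (8.94% lower). Of 5 measured subunits and associated proteins outside the symbol pattern, Atpif1 was the one called at 7 days, and none was called at 5 months. Atpif1, the inhibitor of ATP synthase, was lower at 7 days with 362 ± 8.33 and 316 ± 15.2 CPM (-0.19 ± 0.05, limma, adjusted p = 0.0127). It was not called in the 4 other scalings and tests. Cyc1, of complex III, differed by -0.02 and 0.00. Of 37 further assembly factors, Cox19, Coa3 and Coa7 were lower at 7 days and Cox19 and Coa3 at 5 months, and none was higher with deposited CPM; their median differences were -0.06 and -0.04. At 7 days Cox19 alone was lower under TMM, RLE and in edgeR, Surf1 was higher under RLE, and the authors' deposited table has Cox19 and Coa7 lower and Coa5 and Surf1 higher. At 5 months Cox19 was not called under RLE or in the authors' deposited table, and Coa3 was not called in edgeR. Cox19, a copper-handling assembly factor of complex IV, was lowest in adjusted p at 7 days, with 46.8 ± 1.39 and 37.5 ± 2.70 CPM (-0.32 ± 0.06, limma, adjusted p = 0.00316) and groups that did not overlap, and was 37.4 ± 2.72 and 31.8 ± 0.910 CPM at 5 months (-0.23 ± 0.07, limma, adjusted p = 0.0392). None of 13 listed subunits encoded in mitochondrial DNA was found by name at either time, so they were not analysed here.

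Regulators of mitochondrial biogenesis gave 4 calls at 7 days. Of 18 measured, Ppargc1b, Tfam, Tfb2m and Yy1 were called lower and none higher with deposited CPM, where 12.1% of all genes tested were called lower. Under TMM scaling the calls were Tfam and Tfb2m (2 of 18, with 13.4% of all genes called), under RLE or in edgeR Tfb2m alone, and in the authors' deposited table Tfam and Tfb2m lower and Esrra higher (0.21, adjusted p = 0.0223 from DESeq2). The list's median difference was -0.18 at 7 days and -0.04 at 5 months, against -0.07 and 0.00 over all genes tested. Tfam, which packages and transcribes mitochondrial DNA, was 90.0, 82.2, 99.5, 83.4 and 87.2 CPM in acute controls 1 to 5 and 64.4, 71.7 and 84.0 CPM at the lowest, median and highest of the acute DKO libraries. DKO 7 lay within the control range and the other 6 DKO libraries below it. Its difference was -0.27 ± 0.07 (limma, adjusted p = 0.0143), and at 5 months -0.17 ± 0.06 and not called (limma, adjusted p = 0.0956). Tfb2m, a factor of mitochondrial transcription, went from 15.5 ± 1.34 to 11.9 ± 1.32 CPM at 7 days (-0.36 ± 0.09, limma, adjusted p = 0.0185).

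Of the PGC-1 coactivators, Ppargc1a and Ppargc1b were called in opposite directions at 5 months. Ppargc1a stood at 84.7, 88.3 and 85.6 CPM in controls 1 to 3 and at 95.1, 95.4, 107, 110.1 and 111 CPM in DKO libraries 1 to 5. Ppargc1b stood at 54.8, 49.2 and 49.7 CPM in the controls and at 41.2, 43.0, 44.3, 39.6 and 40.2 CPM in the DKO libraries. Groups overlapped for neither gene. The differences were 0.26 ± 0.06 and -0.29 ± 0.06 (limma, adjusted p = 0.0183 and 0.00967), and both calls held in the 4 other scalings and tests. At 7 days Ppargc1b was lower by a like amount (-0.27 ± 0.08, limma, adjusted p = 0.0448), a call that no other scaling or test gave, and Ppargc1a differed by 0.25 ± 0.13 (limma, adjusted p = 0.215). No other regulator among the 18 was called at 5 months, where 14.7% of all genes tested were called.

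**Figure D5:**
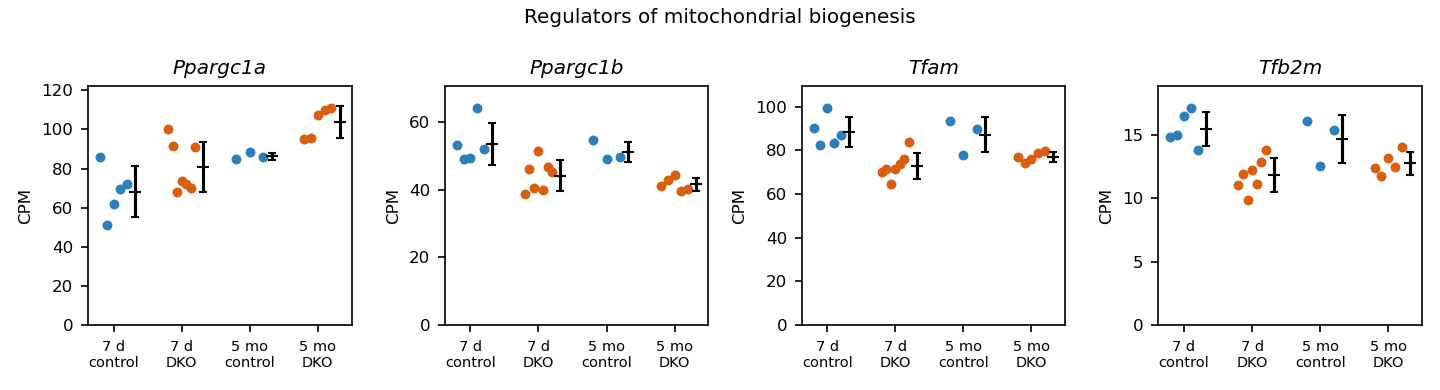
CPM per library (y axis, from 0) of 4 regulators of mitochondrial biogenesis in control (blue) and DKO (orange) libraries at 7 days and 5 months; black marks are the mean and SD. Ppargc1a is above and Ppargc1b below all controls in the DKO libraries at 5 months, and Tfam is lower in 6 of 7 acute DKO libraries than in any acute control.

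Around the chain, most genes of each list were not called, apart from the pyruvate dehydrogenase kinases and phosphatases at 5 months. Of all genes tested with deposited CPM, 15.0% were called at 7 days (2.90% higher and 12.1% lower). At 5 months 14.7% were called (5.74% higher and 8.94% lower). In the 4 other scalings and tests the shares lay between 12.9% and 15.0% at 7 days and between 15.0% and 15.6% at 5 months. Of 19 tricarboxylic acid cycle and pyruvate dehydrogenase genes, Suclg2, a subunit of succinyl-CoA ligase, was lower at both times with deposited CPM (-0.23 ± 0.06 and -0.23 ± 0.06) and Idh3a, of the NAD-linked isocitrate dehydrogenase, higher at 5 months, from 252 ± 2.30 to 301 ± 8.71 CPM (0.25 ± 0.05, limma, adjusted p = 0.00331). Under TMM the acute calls in this list were Idh3a, Mpc2 and Pdha1, all higher, and Suclg2 was not called. Of 6 pyruvate dehydrogenase kinases and phosphatases, 2 were lower at 7 days (Pdk3 and Pdp2), and 1 higher (Pdk1) and 3 lower (Pdk2, Pdk3 and Pdp2) at 5 months with deposited CPM. The acute calls were 1 higher (Pdk1) and 0 lower under TMM, RLE and in edgeR, and the authors' deposited table has Pdk1 higher and Pdp2 lower. At 5 months Pdk1 stayed higher in all 4 of these, and the lower calls were Pdp2 alone under RLE and in edgeR. None of 7 ADP, ATP and phosphate carriers was called with deposited CPM at either time, and Ucp2 was called higher in the 4 other scalings and tests at both. Of 11 ubiquinone-related genes, Coq10b was higher at 7 days (0.43 ± 0.12, limma, adjusted p = 0.0276) and none at 5 months.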

How the data were processed

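Poly(A) RNA of 20 libraries was sequenced after preparation with a kit from NEB. Per the submitters' processing notes, the tools were STAR, featureCounts 1.6.2, DESeq2, FastQC 0.11.5, bedtools 2.27.1 and SAMtools 1.9, with genome build mm9; their settings are not given in the sources used here. The authors deposited 1 table per time with CPM per library, group means, a mean signal per gene (counts divided by size factors), and a log2 fold change, a test score and p-values from DESeq2, per the file headers. The mean signal and the test score were not used, and the authors' log2 fold changes and adjusted p-values served as an alternative. CPM values were whole reads within 0.01 in all libraries, which gave reads in genes per library.

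Each time was fitted within its own table with limma 3.58.1 (R 4.3.3, moderated with a trend) on log2(CPM + 1), for genes with at least 0.5 CPM in 5 (acute) or 3 (prolonged) libraries. P-values were adjusted by Benjamini-Hochberg over all genes tested, and an adjusted p under 0.05 was a call. Effects at both times were compared by subtracting the acute from the prolonged log2 fold change and dividing by the joint standard error, with Welch-Satterthwaite degrees of freedom. Named members were called ones, core subunits and isoform families set by rule. Other members, such as group extremes like Ndufaf7, were named after their values were seen, or for their promoters or copies. The members and all gene lists were chosen with earlier results of these data known. Promoter sequences came from RefSeq, and copies were searched with BLAST 2.17.0 among GENCODE M21 transcripts, 1 coding transcript per member.

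Alternatives were TMM and RLE scaling, edgeR 4.0.16 quasi-likelihood on the recovered reads, the authors' DESeq2 columns, a pseudocount of 0.25, no filter, a minimum of 2 CPM, blocks by replicate number or by nearby animal numbers, leaving out each library, and leaving out acute DKO 3 and 4. Nearby animal numbers were those with the same first 3 digits. The within-library ratios were added after seeing the data and are given with no test. On simulated counts with 100 genes changed per fold size, limma called 52% of changes of 0.5 on the log2 scale and 95% of changes of 1 in the acute design (13560 genes), and 86% and 100% in the prolonged design (13227 genes). The changed genes were drawn from those well above the filter on low values. These rates thus do not cover low members such as Cox6b2, and changes smaller than 0.5 were not simulated. They are also not the rates of a typical member, since the changed genes were drawn from all genes. The median standard error was 0.05 for members and 0.11 for all genes tested at 7 days, and 0.06 and 0.09 at 5 months.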

Additional observations from a re-analysis of the deposited data

Results flagged for a closer look

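In 4 of 81 groups of libraries tested, 1 library lay farther from the rest than Dixon's limit allows; chance alone gives about 1 in 20 groups. Acute DKO 4 had 6.57 CPM of Ndufa4 per 100 CPM of the other complex IV members, while the other 6 acute DKO libraries had 7.59 to 8.16. Prolonged DKO 3 had 22.5 CPM of Cox7a1 per 100 CPM of Cox7a2, while the other 4 had 18.6 to 19.5. Prolonged DKO 2 stood apart in 2 genes, with 174.0 CPM of Cox7a2 against 182.0 to 184.0 and 219.0 CPM of Ndufs1 against 214.0 to 215.0 in the other 4.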

How the results depend on the processing

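No called member changed sign under any alternative run, but the members' median did. At 7 days, the number of members called, 2 with deposited CPM, was 4 in the authors' DESeq2 columns (15.0% of all genes called) and 1 with no filter (11.2%), with a pseudocount of 0.25 (14.7%) or without acute DKO 3 and 4 (12.7%). It ran from 1 to 3 when each library was left out (9.05% to 16.2%). The acute member median of -0.01 became 0.0818 under TMM, 0.0832 in edgeR, 0.0885 under RLE and 0.0910 in the authors' DESeq2 columns, and leaving out each library gave -0.02 to 0.00. At 5 months the count of 4 ran from 0 (without control 3) to 3 when each library was left out, where 7.78% (also without control 3) to 12.9% of all genes were called. The prolonged median ran from -0.01 (without DKO 3) to 0.04 in these fits. Ndufaf7, acute, was called lower without DKO 6 (-0.33, limma, adjusted p = 0.0117), while nearby animal numbers as blocks gave Ndufa4 (0.20), Ndufa6 (0.19, limma, adjusted p = 0.0358) and Cox6b2 (0.60, limma, adjusted p = 0.0448) higher and no longer called Cox7a1 (-0.21, limma, adjusted p = 0.308), with 11.9% of all genes called. In the fit with these blocks, control 5 and DKO 3 and 4 had no library of the other genotype in their block and added nothing to the differences. Control 1 was the only control in its block. The number of members whose effect differed between times stayed at 0 in every setting. Named members at each time lost a call in 39 cases and gained 1 in 3. The cause of these changes was not tested.

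Replicate numbers did not pair libraries: same-number correlations of deviations ran from -0.20 to 0.20 at 7 days and from -0.24 to -0.16 at 5 months. With the replicate block, 1 member was called at 7 days (Ndufaf7) and 0 at 5 months, where 6.96% and 3.97% of all genes were called. For low members such as Cox6a2, under 1 CPM in every group mean, the part of depth in the values was not tested.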
